A study of Mus musculus with 9 samples.

Results

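Blood clotting and the breakdown of fibrin are run by a small set of secreted and membrane proteins, and 8 of the 12394 genes named on the array were followed here as members of these systems: Thbd, F3, F7, F10, F13a1, Plau, Plaur and Serpinb2. All probe sets that the array's annotation assigns to these symbols were taken, which gave 11 of the 22690 probe sets on the array. F10 had 3 probe sets, Plau had 2 and the other 6 genes had 1 each. A member with several is described by the probe set with the highest mean, and the others stand beside it. Of the 11, 10 read at least 6 on the log2 scale on all 9 arrays. The second Plau probe set, 1422139_at, never reached that level, and it was not tested.

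Coagulation starts when tissue factor, the product of F3, binds factor VII, and this pair activates factor X, which in turn leads to thrombin and fibrin. Factor XIII then cross-links the fibrin, while thrombomodulin, the product of Thbd, turns thrombin towards the activation of the anticoagulant protein C. Fibrin is removed by plasmin, which urokinase (Plau), held at the cell surface by its receptor (Plaur), releases from plasminogen, and PAI-2 (Serpinb2) inhibits urokinase. Macrophages can make each of these proteins, and inflammatory stimuli are known to alter several of them.

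The cells were peritoneal macrophages drawn into the mouse peritoneal cavity by injected thioglycollate. They came from wild-type mice, from MyD88-/- mice (MyD88 KO) and from TRIF-/- mice (TRIF KO), which lack either of the adaptor proteins through which Toll-like receptor 4 signals when it meets bacterial lipopolysaccharide (LPS). Cells of each genotype were taken unstimulated (0 h) or after 1 h or 4 h with 100 ng/ml LPS, so thioglycollate elicitation was common to all 9 groups. Each group had 1 array, and the labels give no genetic background, age, sex or number of mice and do not say whether mice were pooled. The design compares the response to LPS, and the levels without it, between the genotypes.

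Values are log2 signals, so a difference of 1 is 2-fold. Levels of different members were not compared, because a probe set's signal also depends on its probes. Linear levels were summed only over lists of marker genes. Such a sum depends most on the brightest probe sets of its list, so it need not reflect the whole list. With 1 array a group, a difference between 2 arrays has no replicate check. Tests came from a limma fit of genotype and time to all 9 arrays, which treats the genotypes as repeats of each time and the times as repeats of each genotype. That fit has no term for a response that differs between genotypes, so such differences are described and were not tested. The spread given for a gene is the SD of a difference between 2 arrays, from the residuals of this fit. Responses that differ between genotypes also enter these residuals, so the spread is not array noise alone. The labels do not say that arrays came from separate mice or cultures, so a p-value here reflects only how these 9 arrays vary, and that variation may be technical.

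Pairs of arrays correlated at 0.9854 to 0.9975 over all probe sets, and no array stood apart. The 8 macrophage markers checked all reached log2 = 6. Among them limma called Mertk (-0.89) and Fcgr1 (-0.75) lower and Cd14 (0.70) higher at 4 h, and Adgre1 (-0.28) and Cd14 (-0.47) lower and Fcgr1 (0.31) higher in MyD88 KO. Their summed linear level was 54406 to 57015 in wild type, 52225 to 53955 in MyD88 KO and 55080 to 57256 in TRIF KO, and their part in the members' differences was not tested. Myd88 was lower in the MyD88 KO arrays (-0.44 ± 0.0808 (SE), limma, adjusted p = 0.00767), with 9.30, 9.19 and 9.34 at 0, 1 and 4 h against 9.57, 9.58 and 10.002 in wild type. Its probe set still gave signal there. Ticam1, which encodes TRIF, had no probe set that could be matched, so the TRIF KO label could not be checked in this way.

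After 4 h of LPS, Serpinb2 and F10 rose and Thbd fell in the average over the genotypes. These were 5 of the 10 member probe sets tested, 4 higher and 1 lower, while 4.71% of the 16712 probe sets tested were called higher and 5.83% lower (limma, adjusted p under 0.05). The 5 cover 3 of the 8 genes, because F10 accounts for 3 of them. F3, F7, F13a1, Plau and Plaur did not pass. The median estimate at 4 h was 0.19 over the 10 member probe sets, in which F10 counts 3 times, 0.02 over the 8 genes by their highest-mean probe sets, and -0.01 over all probe sets tested. By size alone, 1 member probe set stood at least 2-fold higher at 4 h in each genotype, Serpinb2, beside 1.23% of all probe sets tested in wild type, 0.461% in MyD88 KO and 0.389% for TRIF KO. At least 2-fold lower was Thbd in wild type and TRIF KO, beside 0.455% and 0.0479% of all probe sets, and no member in MyD88 KO, beside 0.00598%. At 1 h limma called 0 members, against 0.221% of all probe sets, and 3 members had an unadjusted p under 0.05 (F3 and Serpinb2 higher, Thbd lower).

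Genotype was tested over the 3 times. In MyD88 KO, F7 and Thbd were higher and F3, F10 and Serpinb2 lower, which is 5 of 10 probe sets, 2 higher and 3 lower (limma, adjusted p under 0.05). Over all probe sets tested, 3.87% were called higher and 2.68% lower. In TRIF KO, F7 and Plaur were higher, 2 of 10, where 1.07% of all probe sets were called higher. No member was called lower in TRIF KO by limma, with 0 at an unadjusted p under 0.05, where 0.419% of all probe sets were. The wild-type arrays serve as reference for both knockouts, so the calls in MyD88 KO and TRIF KO are not independent of each other.

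**Figure D1:**
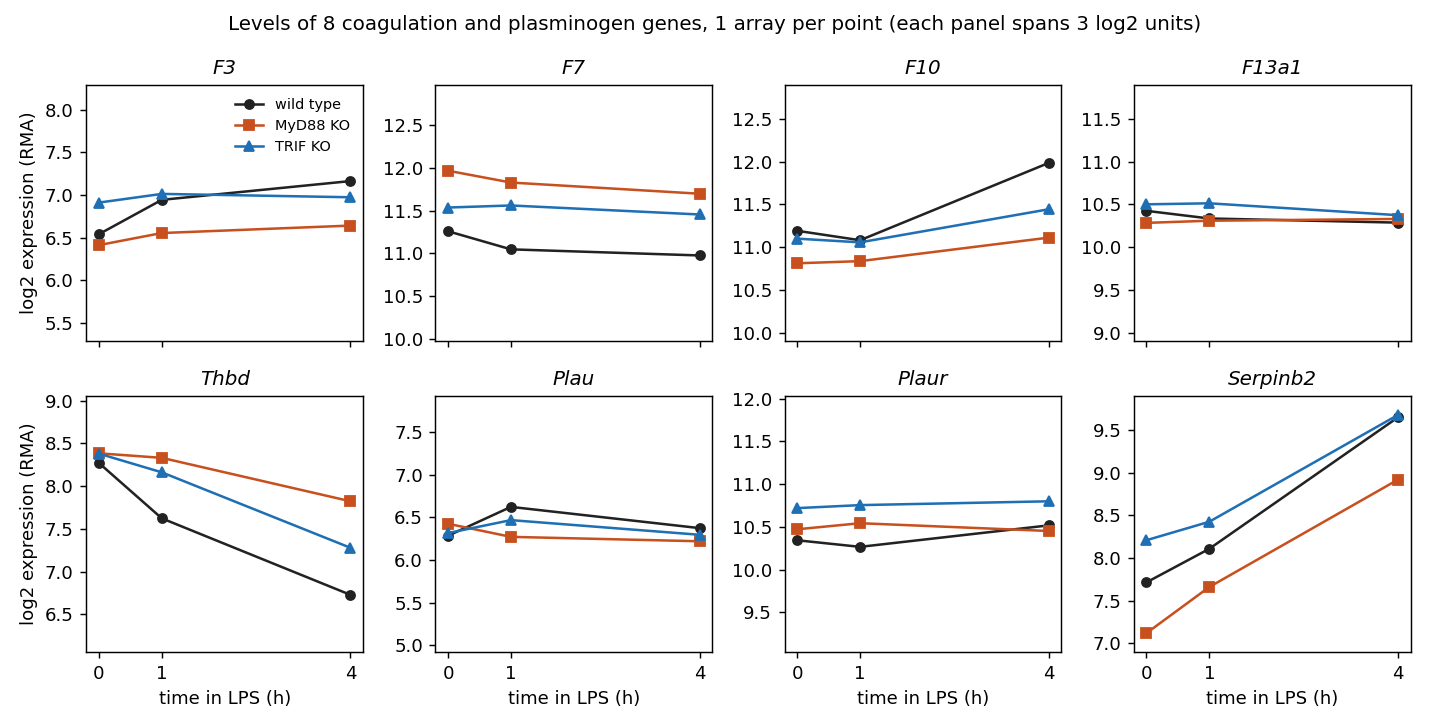
Log2 level of the highest-mean probe set of each gene on the 9 arrays (y axis, 3 log2 units in each panel) against hours with LPS (x axis), with 1 point per array and 1 line per genotype. Serpinb2 climbs in all 3 genotypes, Thbd drops furthest in wild type (8.27 to 6.73), and the F7 lines run apart without crossing, from 11.26 in wild type to 11.97 in MyD88 KO at 0 h.

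Among the clotting factors, F3 encodes tissue factor, the membrane receptor that starts the extrinsic pathway. Its log2 level (1417408_at) in wild type was 6.54 at 0 h, 6.94 at 1 h and 7.16 at 4 h. In MyD88 KO it read 6.41, 6.55 and 6.64, and in TRIF KO 6.91, 7.01 and 6.97. All 3 wild-type levels lay above the MyD88 KO level of the same time, and the TRIF KO arrays started high and stayed there. From 0 to 4 h the wild-type arrays differed by 0.62, those of MyD88 KO by 0.23 and those of TRIF KO by 0.06, against a spread of 0.205. Averaged over genotypes it was 0.30 ± 0.0919 (SE) and did not pass (limma, adjusted p = 0.0582), although all 3 genotypes were higher at 4 h. Without the TRIF KO 4 h array it did (0.40, adjusted p = 0.0396). Under 17 of 19 alternatives it did not (limma, adjusted p up to 0.395).

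The level of F3 was lower in MyD88 KO by limma (-0.35 ± 0.0919, adjusted p = 0.0462, lower at 3 of 3 times). The gap to wild type was -0.13 at 0 h, -0.39 at 1 h and -0.52 at 4 h. This call was lost when any of 7 arrays was left out: the wild-type 1 h or 4 h array (adjusted p = 0.149 and 0.249), any MyD88 KO array (0.0538, 0.144 and 0.184 for 0, 1 and 4 h), or the TRIF KO 0 h or 1 h array (0.0545 and 0.0836). It was also lost when arrays were centred on reference transcripts (-0.37, adjusted p = 0.085). In TRIF KO the estimate was 0.08 (limma, adjusted p = 0.775). In the order of the 9 levels, 1 gap exceeded the spread, between MyD88 KO at 4 h and TRIF KO at 0 h.

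The 250 bases before the F3 transcript start, from RefSeq (GRCm38.p6, chr3:121723287-121723536, plus strand), are shown because F3 is the trigger of the cascade and its window is among the richest in matches. Capitals mark matches on either strand to the AP-1 motif TGANTCA and the SP1 motif GGGCGG.
F3 upstream: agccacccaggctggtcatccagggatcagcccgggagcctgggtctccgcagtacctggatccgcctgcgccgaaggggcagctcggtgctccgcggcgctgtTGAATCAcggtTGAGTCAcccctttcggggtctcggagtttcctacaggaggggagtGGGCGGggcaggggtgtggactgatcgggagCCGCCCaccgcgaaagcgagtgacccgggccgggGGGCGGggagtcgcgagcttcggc
The AP-1 matches lie 146 to 140 and 135 to 129 bases before the start. Of all 32851 such windows, 6.75% hold an AP-1 match and 32.7% an SP1 match. No match to the NF-kB motif was found in this window, which says only that the letters searched are not in it. Those letters had to begin with GGG and end with CC, so an NF-kB site that starts or ends otherwise would be missed.

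F7 encodes factor VII, the serine protease that tissue factor binds. Its log2 level (1419321_at) was 11.26, 11.05 and 10.98 at 0, 1 and 4 h in wild type. It was 11.97, 11.83 and 11.70 in MyD88 KO and 11.54, 11.56 and 11.46 in TRIF KO. The genotypes did not overlap: all 3 wild-type arrays were lowest, all 3 MyD88 KO arrays highest, and the TRIF KO arrays lay between. How many of all probe sets separate in such a way was not counted, here or for the genes below. F7 was higher in MyD88 KO by 0.74 ± 0.0684 (SE, limma, adjusted p = 7.33e-05, higher at 3 of 3 times). The gap was 0.71, 0.78 and 0.72 at 0, 1 and 4 h, which is 1.63-, 1.72- and 1.65-fold, so it was there before LPS was given. At 0 h, 0.311% of the probe sets tested stood at least as far above wild type.

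In TRIF KO, F7 was higher by 0.42 ± 0.0684 (limma, adjusted p = 0.00838, 3 of 3 times), with gaps of 0.28, 0.51 and 0.48. That call was lost without the wild-type 1 h array (adjusted p = 0.0749) and without the TRIF KO 1 h or 4 h array (0.107 and 0.0905). The call in MyD88 KO held under each alternative tried. With LPS, F7 was lower at 4 h in all 3 genotypes, with differences of -0.28 (wild type), -0.27 (MyD88 KO) and -0.08 (TRIF KO). That difference did not pass (-0.21 ± 0.0684, limma, adjusted p = 0.0757).

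Markers of other cells differed between the genotypes too. Of 7 measured markers of resident large peritoneal macrophages, limma called 2 higher in MyD88 KO and 5 higher in the TRIF KO arrays. The summed linear level of the list was 3317 to 3408 on the wild-type arrays, 3827 to 4142 in MyD88 KO and 4439 to 4776 in TRIF KO. Of 6 measured mesothelial and fibroblast markers, 3 (Col1a2, Col3a1 and Dcn) were higher in both knockouts, with sums of 671 to 698, 946 to 1018 and 866 to 1007. The mesothelial genes Msln and Wt1 stayed under log2 = 6, while Upk3b and Krt19 reached it and were not called. Their estimates were 0.20 and 0.24 in MyD88 KO (limma, adjusted p = 0.147 and 0.0557). In TRIF KO they were 0.01 and 0.22 (limma, adjusted p = 0.979 and 0.183). Of the 3 monocyte markers measured, Ccr2 and Chil3 were higher and Plac8 lower in both knockouts, with sums of 1851 to 2132, 2367 to 2587 and 2153 to 2381. Of 4 measured B cell markers, Cd79a (-0.49 and -0.56) and Ms4a1 (-0.33 and -0.45) were lower in MyD88 KO and TRIF KO in that order. The other B cell markers were not called: Cd79b stood lower (-0.44 and -0.53) and Ighm higher (0.21 and 0.13). Their list summed to 800 to 996 in wild type, 739 to 905 in MyD88 KO and 732 to 785 in TRIF KO. The part of these cells in the genotype differences of F7 and of the other members was not tested. In RNA of a whole cell preparation, fewer cells of a type and less RNA per cell cannot be told apart. The 3 measured hepatocyte markers, genes of the organ that makes most plasma clotting factors, summed to 505 to 528 in wild type, 497 to 521 in MyD88 KO and 507 to 531 in TRIF KO, with none called in either knockout.

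**Figure D2:**
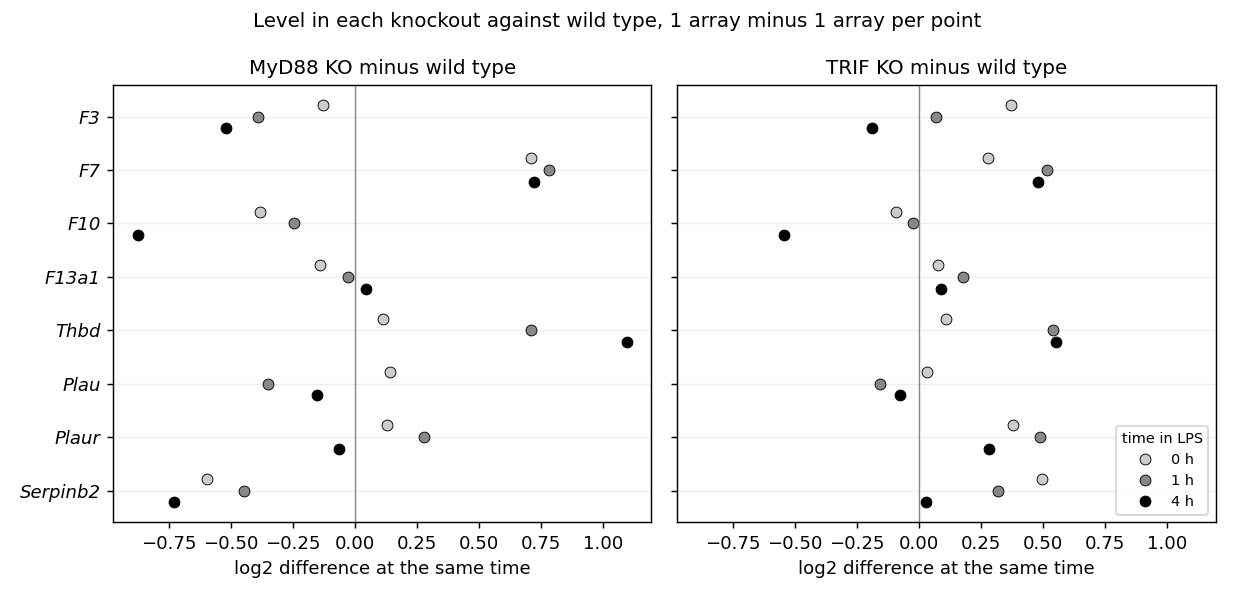
Log2 level in a knockout minus that in wild type at the same time, for the highest-mean probe set of each gene (y axis) at 0, 1 and 4 h, with 1 array minus 1 array per point. F7 in MyD88 KO sits at 0.71 to 0.78 at each time, whereas Thbd moves from 0.11 at 0 h to 1.10 at 4 h.

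F10 encodes factor X, which the complex of tissue factor and factor VII activates. Its log2 level (1449305_at) in wild type was 11.19, 11.08 and 11.99 at 0, 1 and 4 h. It read 10.81, 10.84 and 11.11 in MyD88 KO and 11.10, 11.06 and 11.44 in TRIF KO. The wild-type 4 h array stood above all others, and that gap, to TRIF KO at 4 h, was the only step in the order larger than the spread of 0.253. From 0 to 4 h the difference was 0.79 for wild type, 0.30 for MyD88 KO and 0.34 for TRIF KO. From 0 to 1 h it was -0.11, 0.03 and -0.04.

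The other F10 probe sets gave 0.97 (1418993_s_at) and 0.89 (1418992_at) from 0 to 4 h in wild type. In MyD88 KO they gave 0.50 and 0.58, and in TRIF KO 0.31 and 0.54. The 3 probe sets correlated at 0.958 to 0.983 over the 9 arrays, and in each of them the wild-type difference was the largest of the genotypes. F10 rose at 4 h in the average over genotypes by 0.48 ± 0.105 (SE, limma, adjusted p = 0.0129, 3 of 3 genotypes higher), and by 0.59 (adjusted p = 0.0128) and 0.67 (adjusted p = 0.00448) in the other probe sets. Without the wild-type 0 h array the estimate of 1449305_at was 0.42 with adjusted p = 0.0645, while 1418992_at was still called.

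In MyD88 KO, F10 was lower by -0.50 ± 0.105 (limma, adjusted p = 0.0159, lower at 3 of 3 times), with gaps to wild type of -0.38, -0.24 and -0.87. The other probe sets did not pass (-0.34, adjusted p = 0.165, and -0.44, adjusted p = 0.0561), and without the MyD88 KO 4 h array the call was lost (adjusted p = 0.0946). In TRIF KO the estimate was -0.22 (limma, adjusted p = 0.428), and the gap at 4 h was -0.54. F7 and F10 are neighbours on chromosome 8, and in MyD88 KO limma called F7 higher and F10 lower. The next gene, Proz, which encodes an anticoagulant cofactor, stayed under log2 = 6 (5.41 and 5.45 in wild type at 0 and 4 h).

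The 250 bases before the F10 start (RefSeq, GRCm38.p6, chr8:13037058-13037307, plus strand) are given beside those of F3, because F10 rose with LPS and its window holds none of the 9 motifs searched.
F10 upstream: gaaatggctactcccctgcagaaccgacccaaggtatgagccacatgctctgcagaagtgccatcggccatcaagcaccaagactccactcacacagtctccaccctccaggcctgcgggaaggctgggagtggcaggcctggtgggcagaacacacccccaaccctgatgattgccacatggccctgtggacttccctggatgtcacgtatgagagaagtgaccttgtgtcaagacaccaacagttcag
Besides AP-1 and SP1, the motifs were NF-kB and the interferon element ISRE by name, CRE (TGACGTCA), EGR (GCGNGGGCG), C/EBP (TTNNGNAA), the TATA box (TATAAA) and PU.1 (GAGGAA). They are held by 3.90%, 2.98%, 1.55%, 4.70%, 36.8%, 12.4% and 23.3% of the windows in that order. SP1 and EGR letters can overlap. The F7 window holds 1 PU.1 match and none of the others.

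F13a1 encodes the catalytic subunit of factor XIII, the transglutaminase that cross-links fibrin, and it is abundant in monocytes, macrophages and platelets. Its log2 level (1448929_at) was 10.43, 10.34 and 10.29 in wild type, 10.28, 10.31 and 10.33 in MyD88 KO and 10.502, 10.51 and 10.38 in TRIF KO. The 9 arrays spanned 0.23, the narrowest range among the 8 genes, and no step in their order exceeded the spread of 0.0837. No contrast passed: at 4 h the estimate was -0.07 (limma, adjusted p = 0.593), in MyD88 KO -0.04 (adjusted p = 0.798) and in TRIF KO 0.11 (adjusted p = 0.533). Of 6 measured platelet markers, Pf4 and Ppbp were lower in MyD88 KO (-0.32, adjusted p = 0.0108, and -0.55, adjusted p = 0.00471, limma), and Ppbp was higher at 4 h (0.73, adjusted p = 0.000467). Itga2b, Gp9, Gp1bb and Treml1 were not called, with MyD88 KO estimates between -0.11 and 0.02. The 6 summed to 5886 to 6787 in wild type, 4962 to 5277 in MyD88 KO and 5716 to 6186 in TRIF KO, most of it the signal of Pf4.

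On the anticoagulant side, Thbd fell with LPS. Its log2 level (1448529_at) in wild type was 8.27 at 0 h, 7.62 at 1 h and 6.73 at 4 h. In MyD88 KO it was 8.38, 8.33 and 7.82, and in TRIF KO 8.38, 8.16 and 7.28. The unstimulated arrays lay within 0.11 of each other, and the genotypes then came apart. By 4 h the order was wild type, TRIF KO and MyD88 KO from low to high.

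The difference from 0 to 4 h in Thbd was -1.54 in wild type (2.91-fold lower), -1.10 in TRIF KO (2.15-fold) and -0.56 in MyD88 KO (1.48-fold). In wild type 0.0419% of the probe sets tested were at least as far down, beside 0.0180% in TRIF KO and 0.305% in MyD88 KO. At 1 h it already stood at -0.65 in wild type, -0.22 in TRIF KO and -0.05 in MyD88 KO. The difference at 4 h was thus 0.98 smaller in size in MyD88 KO than in wild type, and 0.44 smaller in TRIF KO. Such a value rests on 4 arrays and has an SD of 0.506 by the residuals of the fit. The TRIF KO value lies within it. These residuals also hold such differences between genotypes, so the SD cannot decide whether either value exceeds array noise. Averaged over genotypes, Thbd fell by 1.07 on the log2 scale at 4 h (SE 0.136, limma, adjusted p = 0.000521, lower in 3 of 3), and this call held under each alternative. The 1 h estimate of -0.31 did not pass (limma, adjusted p = 0.907).

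Thbd was higher in MyD88 KO in the fit over times (0.64 ± 0.136, limma, adjusted p = 0.0170, 3 of 3 times). This average joins unlike gaps of 0.11, 0.71 and 1.10 at 0, 1 and 4 h, and at 4 h 0.168% of the probe sets tested were at least as far above wild type. The call was lost without the wild-type 1 h (adjusted p = 0.0976) or 4 h array (0.101), and without the MyD88 KO 1 h (0.0586) or 4 h array (0.0768). In TRIF KO the estimate was 0.40 (limma, adjusted p = 0.245), from gaps of 0.11, 0.54 and 0.55. Without the wild-type 0 h array it passed (0.60, adjusted p = 0.0206). Under 18 of 20 alternatives it did not (limma, adjusted p up to 0.879). Thrombomodulin is best known from endothelium, and of 6 endothelial markers Pecam1, Tek and Tie1 stayed under log2 = 6. The 3 measured ones summed to 485 to 529 in wild type, 469 to 497 in MyD88 KO and 463 to 514 in TRIF KO, with none called at 4 h or in either knockout. Cd93, the gene next to Thbd on chromosome 2, was -0.63 at 4 h in wild type.

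**Figure D3:**
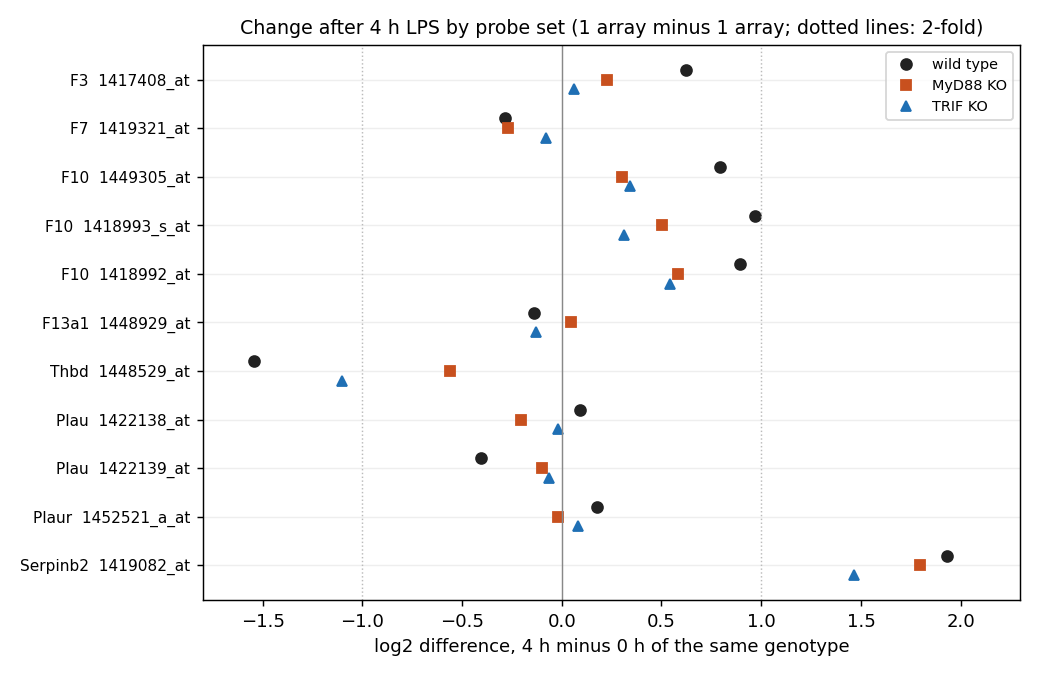
Log2 level at 4 h of LPS minus that at 0 h for each member probe set (y axis) in wild type, MyD88 KO and TRIF KO, with 1 array minus 1 array per point and dotted lines at 2-fold. Serpinb2 lies beyond 2-fold in each genotype (1.93, 1.80 and 1.47), and Thbd does in wild type and TRIF KO (-1.54 and -1.10) but not in MyD88 KO (-0.56).

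In the plasminogen system, Serpinb2 gave the largest differences at 4 h of LPS among the 8 genes, in each genotype. It encodes PAI-2, a serpin that inhibits urokinase and is largely kept inside the cell. Its log2 level (1419082_at) was 7.71, 8.11 and 9.65 at 0, 1 and 4 h in wild type. It was 7.12, 7.66 and 8.92 in MyD88 KO and 8.21, 8.42 and 9.67 in TRIF KO. All 3 arrays at 4 h lay above the other 6, and at each time the order ran from MyD88 KO through wild type to TRIF KO.

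Serpinb2 rose by 1.73 ± 0.0887 (SE) at 4 h in the average over genotypes (limma, adjusted p = 1.15e-06, higher in 3 of 3), and the call held under each alternative. By genotype the difference was 1.93 in wild type (3.82-fold), 1.80 in MyD88 KO (3.48-fold) and 1.47 in TRIF KO (2.76-fold). Between 0.132% and 0.245% of the probe sets tested were at least as far up in the same genotype. At 1 h it was 0.39, 0.54 and 0.22, and the average of 0.38 ± 0.0887 did not pass (limma, adjusted p = 0.221). Of the wild-type difference, 1.54 lay between 1 and 4 h.

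The level of Serpinb2 was lower in MyD88 KO by 0.59 on the log2 scale (-0.59 ± 0.0887, limma, adjusted p = 0.00260, 3 of 3 times), with gaps of -0.59, -0.45 and -0.73. The gap at 0 h was thus as large as the average. In TRIF KO it was 0.49, 0.32 and 0.03 above wild type, and the estimate of 0.28 did not pass (limma, adjusted p = 0.206). Between the unstimulated knockouts the difference was 1.09, or 2.13-fold, which 0.108% of the probe sets tested matched or passed. Of the 8 steps in its order of levels, 5 exceeded the spread of 0.192. The wild-type and TRIF KO arrays at 4 h (9.65 and 9.67) did not differ beyond it.

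Short stretches of the Serpinb2 window are shown because it is the member with the largest difference at 4 h of LPS, and a stretch of the Plaur window because Plaur had no LPS difference that passed. RefSeq places them at chr1:107511317-107511346, chr1:107511382-107511411 and chr7:24462402-24462431 (GRCm38.p6, plus strand), and capitals mark the motif.
Serpinb2 AP-1: tgagtaaaatgtTGAATCAtacaaagaata
Serpinb2 TATA: ggggcagagtctTATAAAaccagtcattac
Plaur AP-1: aacccctggagcTGACTCActctttagcaa
The AP-1 letters begin 94 bases before the upstream Serpinb2 start and 69 bases before the Plaur start, and the TATA letters 29 bases before that Serpinb2 start. AP-1 matches were thus found for F3, Plaur and Serpinb2, 3 of the 6 members with a listed window, beside 6.75% of all windows. These 6 members have 8 windows, so a count by gene and a share by window are not the same measure. Of the 3 genes, limma called Serpinb2 at 4 h and not F3 or Plaur. Thbd and Plau had no listed window. RefSeq begins the Serpinb2, Plaur and F7 genes upstream of the starts used here, unlike F3 and F10. The stretches shown may thus lie within other transcripts of Serpinb2 and Plaur.

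Plau encodes urokinase, the protease that turns plasminogen into plasmin. Its log2 level (1422138_at) stayed low on this array, at 6.28, 6.62 and 6.37 in wild type, 6.42, 6.27 and 6.22 in MyD88 KO and 6.31, 6.47 and 6.29 in TRIF KO. The highest value was that of wild type at 1 h, 0.34 above 0 h, and no step in the order exceeded the spread of 0.176. No contrast passed: the estimate was -0.05 at 4 h (limma, adjusted p = 0.823), -0.12 in MyD88 KO (adjusted p = 0.483) and -0.07 in TRIF KO (adjusted p = 0.808). The probe set 1422139_at read between 4.35 and 4.76.

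Plaur encodes the urokinase receptor, a protein anchored in the membrane by a lipid. Its log2 level (1452521_a_at) was 10.34, 10.27 and 10.52 in wild type, 10.47, 10.54 and 10.45 in MyD88 KO and 10.72, 10.75 and 10.80 in TRIF KO. The 3 TRIF KO arrays lay above the other 6, and the step up to them, from MyD88 KO at 1 h, was the only one beyond the spread of 0.123. Plaur was higher in TRIF KO by 0.38 ± 0.0730 (SE, limma, adjusted p = 0.0237, 3 of 3 times), with gaps of 0.38, 0.49 and 0.28. The call was lost without the wild-type 1 h array (adjusted p = 0.146) and without the TRIF KO 0, 1 or 4 h array (0.157, 0.20 and 0.135). With LPS the difference at 4 h was 0.17, -0.02 and 0.08 in wild type, MyD88 KO and TRIF KO, and the average of 0.08 did not pass (limma, adjusted p = 0.605). The resident macrophage markers F5, Icam2, Prg4, Alox15 and Selp were also higher in TRIF KO, as given above, and their part in the Plaur difference was not tested.

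The rest of both systems was read from lists of 59 other genes, of which 53 had a probe set and 37 reached log2 = 6. Over these 37, limma called 0 genes at 1 h. It called 3 higher and 2 lower at 4 h, 4 higher and 1 lower in MyD88 KO, and 2 higher and 1 lower in TRIF KO. Over all probe sets tested, 4.71% were called higher and 5.83% lower at 4 h. In MyD88 KO 3.87% were called higher and 2.68% lower, and in TRIF KO 1.07% and 0.419%. Of 13 other clotting factors and cofactors, F2, F11, F13b, Fga, Fgb and Fgg stayed under log2 = 6. Of the 7 measured, F5, which encodes the cofactor of factor X, was higher in MyD88 KO (0.74 ± 0.0743, limma, adjusted p = 0.000145) and in TRIF KO (0.68, adjusted p = 0.000461). Its levels were 7.17, 7.15 and 6.97 in wild type, 7.77, 7.94 and 7.78 in MyD88 KO and 7.71, 7.998 and 7.63 in TRIF KO, with no overlap between wild type and either knockout. F5 is itself on the list of resident macrophage markers. Vwf, the carrier of factor VIII, was lower at 4 h (-0.48 ± 0.114, limma, adjusted p = 0.0201), a call lost without the wild-type 4 h (adjusted p = 0.126), MyD88 KO 0 h (0.0721) or TRIF KO 0 h or 4 h array (0.0804 and 0.0779).

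Among the 8 measured genes of the anticoagulant list, which also holds the related ligand Gas6, Procr rose at 4 h by 0.91 ± 0.0676 (limma, adjusted p = 1.13e-05). It encodes the endothelial protein C receptor, which works with thrombomodulin on protein C, and it moved the opposite way to Thbd. Its log2 level (1420664_s_at) was 9.71, 9.68 and 10.75 in wild type, 9.30, 9.19 and 10.10 in MyD88 KO and 9.32, 9.31 and 10.22 in TRIF KO. The differences from 0 to 4 h were 1.03, 0.79 and 0.90, so unlike those of Thbd they lay close together. Procr was lower in MyD88 KO (-0.52, limma, adjusted p = 0.000998) and in TRIF KO (-0.43, adjusted p = 0.00695), the latter lost without the TRIF KO 0, 1 or 4 h array (0.0763, 0.0550 and 0.0677). Proc, which encodes protein C itself, stayed under log2 = 6, as did Tfpi2, Proz and Serpina5. Gas6, a vitamin K-dependent ligand related to protein S, was higher in MyD88 KO (0.48, limma, adjusted p = 0.00162). Its call in TRIF KO (0.34, adjusted p = 0.0305) was lost without the wild-type 1 h or 4 h array (0.134 and 0.131) or any TRIF KO array (0.215, 0.0888 and 0.248 for 0, 1 and 4 h).

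Of the 6 other plasminogen system genes measured, limma called none in any of the 4 contrasts. Plat, the gene of tissue plasminogen activator, stayed under log2 = 6. Of 9 measured genes for binding or clearance, Plgrkt, a plasminogen receptor, was lower at 4 h (-0.27, limma, adjusted p = 0.0205). S100a10, whose protein also binds plasminogen, was higher in MyD88 KO (0.27, adjusted p = 0.0244), and so was Lrp1, the receptor that takes up urokinase with its inhibitors (0.47, adjusted p = 0.0420). Tgm2, a transglutaminase related to F13a1, was higher at 4 h (0.26, adjusted p = 0.0428), as was Nqo1, a reductase listed with the vitamin K cycle (0.47 ± 0.0655, adjusted p = 0.00103). Leaving out single arrays ended the calls of Plgrkt (5 of the 9 arrays, adjusted p up to 0.103 without the wild-type 4 h array), S100a10 (7 arrays, up to 0.143 without MyD88 KO at 4 h), Lrp1 (7 arrays, up to 0.226 without MyD88 KO at 4 h) and Tgm2 (8 arrays, up to 0.253 without wild type at 4 h). The calls of Nqo1 and Procr at 4 h, and those of F5 in both knockouts, held under each alternative.

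**Figure D4:**
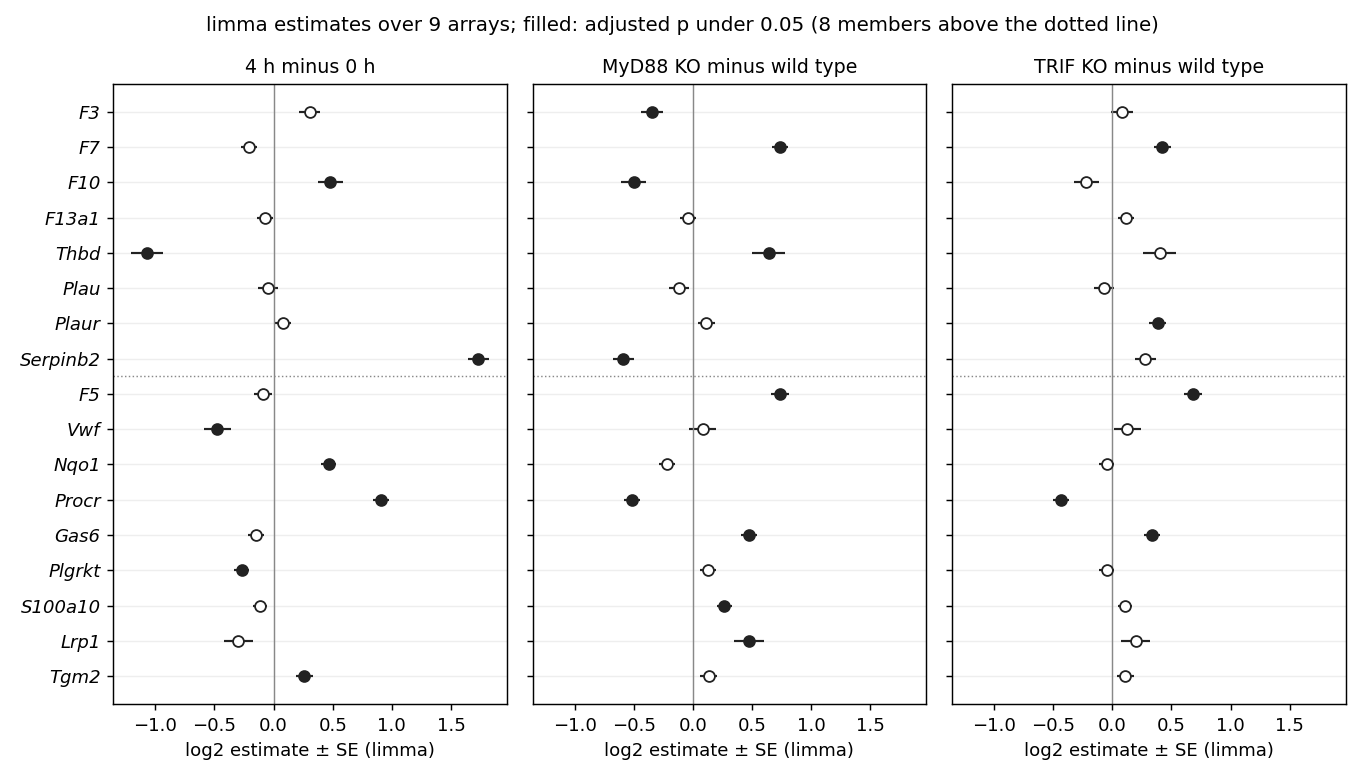
limma estimates (x axis, log2) with standard errors for the 8 genes (above the dotted line) and 9 other genes of both systems (below it), by their highest-mean probe sets, at 4 h and in each knockout, with points filled where the adjusted p was under 0.05. At 4 h Serpinb2 (1.73), F10 (0.48) and Thbd (-1.07) are filled among the 8, in MyD88 KO 5 are, and in TRIF KO F7 (0.42) and Plaur (0.38) are.

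The genes whose log2 levels over the 9 arrays were most like each member's were taken by Pearson's r from 367 genes with a range of at least 1. This is a description over arrays that share their stimulation and genotypes. Thbd was most like Adssl1 (0.99), Tst (0.98) and Dhcr7 (0.98), F10 like Ms4a6c (0.99), Cav1 (0.986) and Kpna3 (0.985), and Serpinb2 like Mmp14 (0.99), Ehd1 (0.98) and Birc3 (0.98). F7, which differed by genotype, was most like Arg1 (0.95), Hal (0.94) and Rrm2 (0.92). F3 was most like Pde4b (0.93), Trim13 (0.92) and Cd14 (0.91). Plaur was most like Gdf3 (0.90), Apoc2 (0.85) and Itgax (0.77). The values were lower for F13a1, with Apobec1 (0.84), Clec2i (0.78) and Apoc2 (0.74), and for Plau, with Dusp2 (0.83), Zfp36 (0.76) and Dusp1 (0.72), the members with the smallest ranges. Between members, Thbd ran against F10 (-0.89) and Serpinb2 (-0.85), and F10 ran with Serpinb2 (0.82).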

How the data were processed

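RNA of 9 macrophage preparations was hybridised to Affymetrix arrays. The authors deposited log2 values, 1 per probe set and array, by RMA, per the submitters' processing notes; the sources used here give neither its version nor whether the arrays were processed jointly. RMA evens out the distributions of arrays and can compress differences at low signal. The number of arrays limits the precision.

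The values were used as deposited. Gene names come from the platform's annotation, updated through RefSeq (GRCm38.p6); 20393 probe sets had 1 symbol, 691 several and 1606 were not listed. limma 3.58.1 (R 4.3.3; lmFit, eBayes without trend, two-sided, Benjamini-Hochberg over all tested, threshold 0.05) was fitted to the 16712 probe sets reaching log2 = 6 on at least 1 array, control probe sets left out, with genotype and time as factors, 4 residual and 7.53 prior degrees of freedom. This procedure was first tested on simulated data with independent noise and additive shifts by genotype or time. Responses that differ between genotypes were not simulated, so that test does not cover them.

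Members and lists were chosen with earlier results of these data known. Named genes were the members; up to 4 others per list that passed limma or had an induction of at least 1; the 3 genes most like each member; and the targeted genes. The alternatives were other filters, centring, a trend, 1 probe set a gene, no block, and left-out arrays, genotypes or times; those for genes that are no members were chosen after seeing the data.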

Additional observations from a re-analysis of the deposited data

How the results depend on the processing

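With 1 array a group, each alternative rests on the same few arrays. The count of member probe sets called was 0 at 1 h under each alternative. At 4 h it was 5, and 2 without genotype as a block; leaving out arrays or genotypes gave 3 to 6. In MyD88 KO it was 5, with 2 after raising values under log2 = 6 to 6 and 1 without time as a block, and 2 to 5 with arrays or times left out. In TRIF KO it was 2, with 1 after raising low values and 0 without the block, and 0 to 3 with arrays or times left out. The values and estimates of the member probe sets tested did not move when low values were raised. Both eBayes and the adjustment draw on all probe sets tested, and which of these steps changed the counts was not tested. Without wild type at 0 h, 1449305_at and 1418993_s_at of F10 lost their 4 h calls and 1418992_at kept its own. Serpinb2 lost its MyD88 KO call only without the block (adjusted p = 0.723).

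Centring on reference transcripts ended the MyD88 KO calls of F3 (limma, adjusted p = 0.085), S100a10 (0.0569) and Lrp1 (0.113), the 4 h calls of Vwf (0.0762) and Tgm2 (0.053) and the TRIF KO call of Gas6 (0.0693, and 0.0555 with centring on the array median). Called under all 20 alternatives were Serpinb2 at 4 h (1.63 to 1.86), Thbd at 4 h (-1.32 to -0.83) and F7 in MyD88 KO (0.70 to 0.78). F3 at 4 h also passed with 1 row per gene (limma, adjusted p = 0.0459) and F7 at 4 h with a trend (0.0442). Some estimates that never passed changed sign with arrays left out. At 1 h these were F10 (-0.12 to 0.0696), F13a1 (-0.0579 to 0.0186), Plau (-0.0010 to 0.24) and Plaur (-0.0455 to 0.0771), and at 4 h Plau (-0.14 to 0.0608). In MyD88 KO it was F13a1 (-0.0902 to 0.0084), and in TRIF KO F3 (-0.0599 to 0.22) and Plau (-0.16 to 0.0121). Genotype and time served as blocks of each other; the labels give no replicate numbers for a further block.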
